A study of Rattus norvegicus with 8 samples.

Results

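The nuclear-encoded mitochondrial respiratory chain and ATP synthase were followed, complex by complex, in rat hippocampal neurons that received a short hairpin RNA (shRNA) against Sirt6. The genes were chosen by name on the array: names that start with Nduf, Uqcr or Atp5, names from Cox4 to Cox8 followed by a letter, and Sdha, Sdhb, Sdhc, Sdhd, Cycs and Cyc1, with Ndufa4l2 and the Ndufaf assembly factors left out. That rule took 113 of the 45598 probes, which belong to 84 genes, the members below. Of these genes 81 had a probe bright enough to test, out of 22593 genes tested in all. The rule took in 4 genes that encode no subunit in the usual sense, namely Dmac2l and Dmac2 (named Atp5s and Atp5sl on the array), Cox7a2l and the pseudogene Cox6c-ps1. It missed 4 genes that the array lists under other names (Atp5if1, Atp5mk, Cox6b1 and Ndufa13), whose log2 differences ran from -0.09 to 0.12 with no call.

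Respiratory chain complexes I to IV sit in the inner mitochondrial membrane and pass electrons from NADH and succinate through ubiquinone and cytochrome c to oxygen. Complexes I, III and IV pump protons as they do so, and complex V, the ATP synthase, lets the protons back and makes ATP. Neurons draw most of their ATP from this chain, whose subunits come from both the nuclear and the mitochondrial genome.

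The data are 8 one-colour Agilent arrays of total RNA, 4 per group, from hippocampal neurons of Wistar rats at postnatal day 0-1. Both groups were infected with a lentiviral vector after 3 days in vitro at a multiplicity of infection of 6, and were 10 days in vitro at the end, 7 days after infection. One group received a scrambled control shRNA and the other an shRNA against Sirt6, which encodes a NAD-dependent deacetylase of chromatin. The labels name 1 kind of shRNA per group, with no second hairpin or rescue, and do not say whether the arrays of a group came from separate cultures, so the p-values reflect the spread among these arrays alone, part or all of which may be technical.

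The Sirt6 probe read 34.6% of its scrambled level after Sirt6 shRNA (log2 difference -1.53, SE 0.04, limma adjusted p = 5.6e-06). Each array had 60.4% to 65.3% of its probes well above background and no saturated probe. All neuron markers of a list of 12 were measured, and 5 of them rose and 1 fell. All 10 astrocyte markers were measured too, and 8 fell. Of all genes tested 15.6% rose and 14.8% fell at a limma adjusted p under 0.05. Cultures of this kind hold several cell types, and in such bulk RNA fewer cells of a type and less RNA per cell cannot be told apart.

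The probes are 60-base oligonucleotides, and what they read decides what the values mean. Those shown here are the pair for Uqcr11, which gave opposite differences, the Ndufa10 probe beside the 2 probes of its near namesake Ndufa10l1, the isoform pair Cox6a1 and Cox6a2, and Dmac2l, which had the lowest difference of all members. Each line gives 30 of the probe's 60 bases, 5′ to 3′, as the array files hold them, and capitals mark AATAAA, the usual polyadenylation signal.
Uqcr11 brightest probe: atcaatggcaagtttaagaaggacgattag
Uqcr11 other probe: tggatatgttgctaatgttggtggcttgtg
Ndufa10: ctgtgcgtgtgacagggctaacatttagat
Ndufa10l1 brightest probe: aaccttctagcgtttggaatcatctggggg
Ndufa10l1 other probe: aactacaacaaaggaccttggcttaaacag
Cox6a1: accacgaaagcccattggatgctcagctca
Cox6a2: agttccaagcgcAATAAAggtgtgaaactt
Dmac2l: acaagtcagaaaacagtAATAAAaacaaag
In the build rn4 given by the files, the brightest Uqcr11 probe lies at chr7:10819606-10819665 on the plus strand and the other at chr7:10819990-10820049 on the same strand. The Ndufa10 probe lies at chr9:91661939-91661998 on the minus strand, between the Ndufa10l1 probes at chr9:91655487-91655546 and chr9:91676399-91676458 on the same strand. The Cox6a1 probe lies at chr12:42533025-42533084 on the plus strand and the Dmac2l probe at chr6:91799544-91799603 on the plus strand. Exons and untranslated regions of these spans were not analysed here. AATAAA stood in 26 of the 113 member probes (23.0%) and in 9.04% of all probes.

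A smaller share of respiratory chain genes was called than of all genes, and those called were mostly lower after Sirt6 shRNA. Of 81 genes tested, 17 were called at a limma adjusted p under 0.05 (21.0%), against 30.4% of all genes tested. Of these, 15 were lower, or 18.5% of the members against 14.8% of all genes, and 2 were higher, or 2.47% against 15.6%. The groups did not overlap for 22 members (27.2%), of which 19 were lower, against 33.4% of all genes. The median log2 difference of the members was -0.05 and that of all genes 0.02. The median size of the difference, whatever its sign, was 0.07 on the log2 scale for members and 0.14 for all genes. In all, 52 of the 81 differences were smaller than 0.1 and 2 reached 1.5-fold, those of Dmac2l and Cox6a2. Without the 4 genes that encode no subunit in the usual sense, 14 of 77 were lower and 2 higher.

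**Figure D1:**
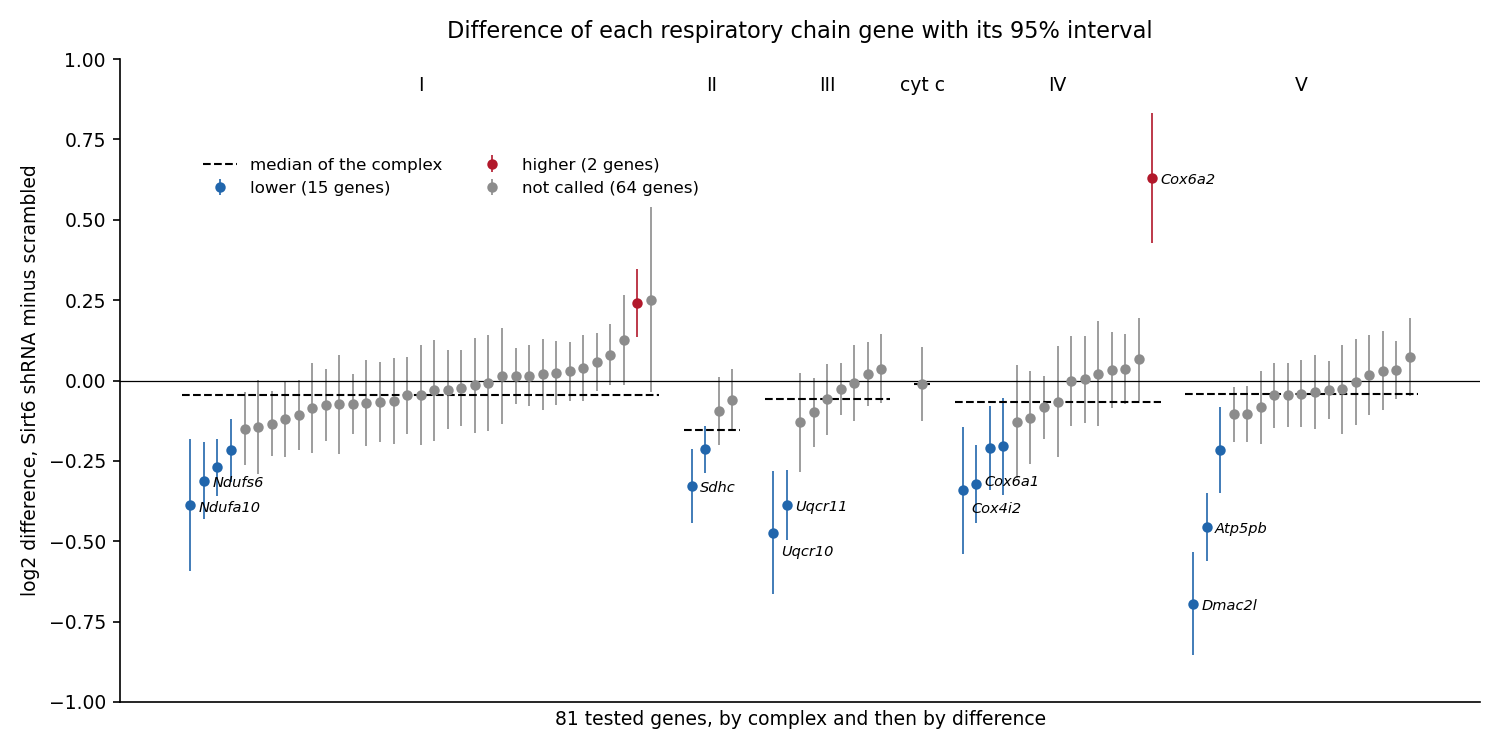
Log2 difference of each of the 81 tested genes, Sirt6 shRNA minus scrambled shRNA, with its 95% interval from limma, by complex (cyt c, cytochrome c); dashed lines are the median of each complex and labels mark called genes whose difference exceeds 0.3 in size. Most genes lie within 0.1 of zero, and the medians of all complexes lie below zero under this scaling; those of complexes I, III, IV and V and of cytochrome c lie above it when spike-in probes set the scale.

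The direction rests in part on how arrays are scaled. Signals here are set relative to each array's 75th percentile. When the E1A spike-in probes set the scale instead, 4 members were called lower (Dmac2l, Atp5pb, Uqcr10 and Uqcr11) and 2 higher, and the median of the members turned to 0.03. The median of all genes rose to 0.09 with it. This scaling shifts all genes on an array alike, so by construction it leaves the distance of the members' median from that of all genes at -0.07; the distance was -0.038 with normexp background correction and -0.039 with quantile normalization. The medians of complexes I, III, IV and V turned to 0.03, 0.02, 0.00833 and 0.03, and that of complex II stayed negative at -0.08. Of all genes called, 51.3% were higher under the main scaling, 64.0% under spike-in scaling and 35.2% under median centring.

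Complex I takes electrons from NADH, and its 35 genes split into the catalytic core and accessory subunits. This and the other class divisions below were assigned from textbook roles after values had been seen. None of the 7 tested core genes was called, and their median log2 difference was 0.02. Of the 28 accessory genes 4 were lower and 1 was higher (17.9% called, against 30.4% of all genes), with a median of -0.07. Ndufs7, which carries an iron-sulfur cluster next to the ubiquinone site, came closest among the core genes with a log2 difference of -0.15 (SE 0.05, limma adjusted p = 0.051). Its groups did not overlap, with 3.00, 3.06, 3.00 and 3.13 in the scrambled and 2.87, 2.94, 2.82 and 2.97 in the Sirt6 shRNA arrays on the log2 scale. Ndufs7 was the 1 core gene of 7 with a negative difference. The groups of Ndufv2 did not overlap either, but in the opposite direction (log2 difference 0.08, limma adjusted p = 0.18).

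Ndufa8, an accessory subunit with paired cysteine motifs, read 5.14, 5.15, 5.09 and 5.07 in the scrambled and 4.86, 4.89, 4.80 and 4.82 in the Sirt6 shRNA arrays (log2 signal relative to the array's 75th percentile, as for all levels below). The 2 groups lay apart, at a log2 difference of -0.27 (SE 0.04, limma adjusted p = 0.0016), and its other probe gave -0.29. Ndufs6, a zinc-binding accessory subunit of the NADH-oxidising arm, read 4.75, 4.63, 4.61 and 4.57 in the scrambled and 4.35, 4.35, 4.24 and 4.37 in the Sirt6 shRNA arrays. It was lower on every Sirt6 shRNA array than on any scrambled array, with a log2 difference of -0.31 (SE 0.05, limma adjusted p = 0.0032). The files place its probe on chromosome 2 of rn4, whereas RefSeq's GRCr8 promoter table places Ndufs6 on chromosome 1; whether the probe reads another locus was not tested.

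Ndufa2, an accessory subunit of the matrix arm, read 2.78, 2.78, 2.69 and 2.66 in the scrambled and 2.54, 2.54, 2.46 and 2.51 in the Sirt6 shRNA arrays. All 4 Sirt6 shRNA values lay under the lowest scrambled value, and the log2 difference was -0.22 (SE 0.04, limma adjusted p = 0.0068). Ndufa10, an accessory subunit of the membrane arm, was dim and more spread, with -1.67, -1.91, -1.63 and -1.81 in the scrambled and -2.03, -2.10, -2.10 and -2.36 in the Sirt6 shRNA arrays. The groups did not overlap, although the gap between the nearest arrays was small, and the log2 difference was -0.39 (SE 0.09, limma adjusted p = 0.014). The 2 probes for Ndufa10l1, which lie on either side of the Ndufa10 probe on the same strand and share at most 6 bases in a row with it, gave -0.11 and -0.16. The first was not called and the second was (limma adjusted p = 0.13 and 0.039 over all kept probes). Their scrambled mean signals before scaling were 7635 and 2101, against 95.6 for the Ndufa10 probe. Which transcript the dim Ndufa10 probe reads was not tested.

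Ndufs4 was the 1 complex I gene called higher. It encodes an accessory subunit that steadies the NADH-oxidising arm, and its loss causes a Leigh-like brain disease in mice. Its 1 probe was dim, with a mean signal before scaling of 104 in the scrambled and 126 in the Sirt6 shRNA arrays. The gene read -1.63, -1.61, -1.66 and -1.63 in the scrambled and -1.48, -1.40, -1.29 and -1.39 in the Sirt6 shRNA arrays. The scrambled values were close together and all lay below the Sirt6 shRNA values, at a log2 difference of 0.24 (SE 0.05, limma adjusted p = 0.0059). Over the 20 alternatives the difference ran from 0.13, with normexp background correction, to 0.32, with spike-in scaling, where the limma adjusted p was 0.049, the highest of all. Ndufc1 had a difference of much the same size, 0.25, but its groups overlapped and it was not called (SE 0.12, limma adjusted p = 0.17). Its 1 probe was dimmer still, with a mean signal before scaling of 55.4 in the scrambled and 66.9 in the Sirt6 shRNA arrays.

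Complex II, succinate dehydrogenase, feeds electrons from the tricarboxylic acid cycle and is encoded wholly in the nucleus. All 4 of its genes had a negative difference, with a median of -0.15, and 2 were called lower. Among all 22593 genes tested, 10300 had a negative difference, 14.8% were called lower and 30.4% were called in either direction. Sdha, the flavoprotein that oxidises succinate, read 3.43, 3.46, 3.45 and 3.40 in the scrambled and 3.22, 3.22, 3.24 and 3.21 in the Sirt6 shRNA arrays. Both groups were tight and apart, and Sdha stood at 86.2% of its scrambled level (log2 difference -0.21, SE 0.03, limma adjusted p = 0.002). Sdhc, a membrane anchor that helps to bind haem and ubiquinone, read 3.79, 3.87, 3.74 and 3.80 in the scrambled and 3.53, 3.42, 3.40 and 3.55 in the Sirt6 shRNA arrays. It stood at 79.7% of its scrambled level, with no overlap (log2 difference -0.33, SE 0.05, limma adjusted p = 0.0021). Sdhb, the iron-sulfur subunit, had a log2 difference of -0.10 (limma adjusted p = 0.15) and Sdhd, the other anchor, -0.06 (limma adjusted p = 0.31), both with overlapping groups.

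**Figure D2:**
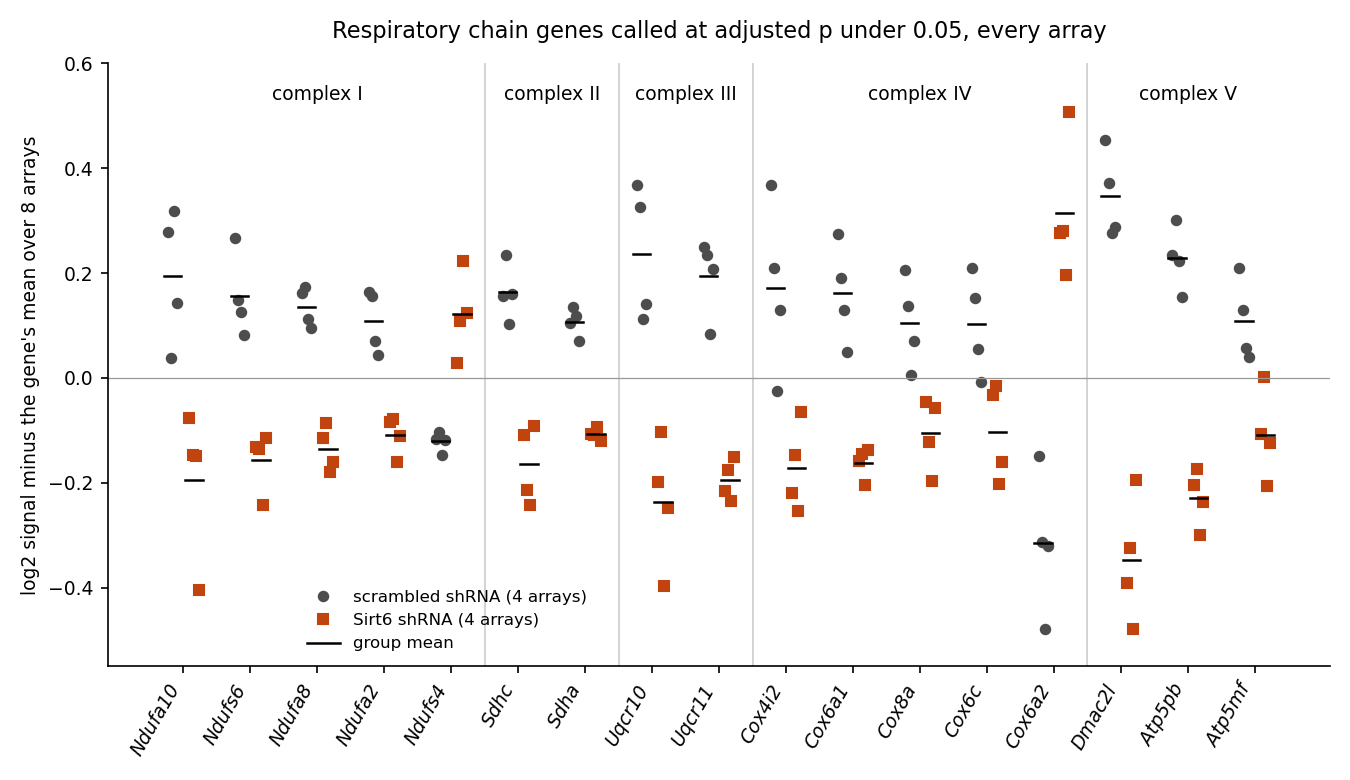
Log2 signal of the 17 called genes on each array, minus the gene's mean over 8 arrays, by complex; grey circles are scrambled shRNA arrays, orange squares Sirt6 shRNA arrays and black bars group means (n = 4). The groups do not overlap for any of these genes, and Ndufs4 and Cox6a2 are the 2 with the Sirt6 shRNA arrays on top.

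Complex III passes electrons from ubiquinol to cytochrome c. Its 4 catalytic and core genes (Cyc1, Uqcrfs1, Uqcrc1 and Uqcrc2) stayed between -0.06 and 0.04 with no call. Of its 5 small subunit genes 2 were lower, where 14.8% of all genes were called lower and 30.4% in either direction. Uqcr10, a small membrane subunit, read 6.82, 6.78, 6.56 and 6.59 in the scrambled and 6.25, 6.35, 6.06 and 6.20 in the Sirt6 shRNA arrays. Its groups did not overlap, and it stood at 72.0% of its scrambled level (log2 difference -0.47, SE 0.08, limma adjusted p = 0.0041). A second Uqcr10 probe, which shares 37 bases in a row with the first, gave -0.51. The files place that probe on chromosome 15 of rn4, and RefSeq's GRCr8 promoter table places Uqcr10 on chromosome 14. They give no position for the first probe, and whether either probe reads another locus was not tested.

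Uqcr11, the smallest complex III subunit, was called lower with 1 of its probes and read higher with the other. The brightest probe read 4.81, 4.80, 4.65 and 4.77 in the scrambled and 4.35, 4.39, 4.33 and 4.41 in the Sirt6 shRNA arrays, a log2 difference of -0.39 without overlap (SE 0.05, limma adjusted p = 0.00076). The other probe read 0.81, 0.88, 0.81 and 0.83 in the scrambled and 1.04, 0.98, 0.94 and 1.09 in the Sirt6 shRNA arrays, again without overlap but in the opposite direction, at 0.18 (SE 0.04, limma adjusted p = 0.019 over all kept probes). With the mean of both probes the gene was not called (log2 difference -0.10, limma adjusted p = 0.10). The pair shares no run longer than 5 bases, so each reads its own stretch, and the direction given for Uqcr11 is that of 1 stretch.

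Of 24 genes with several kept probes, 10 had probes of opposite sign, and in 4 the probes differed by more than 0.3 on the log2 scale. Beside Uqcr11 these were Ndufab1, the mitochondrial acyl carrier protein (-0.13 and 0.52), Uqcrq, a small complex III subunit (-0.13 and 0.27), and Ndufa7, a complex I accessory subunit (-0.05 and 0.27). In each of the 4 the brighter probe gave the negative value. The dim Ndufa7 probe separated the groups (limma adjusted p = 0.0092 over all kept probes), while the dim Ndufab1 probe (limma adjusted p = 0.14) and the dim Uqcrq probe (limma adjusted p = 0.11) did not. In the 9 pairs of probes that share at least 20 bases in a row the differences lay within 0.13 of each other, and in the 22 other pairs within 0.66. The other 6 genes with opposite signs were Cox5b (-0.0017 and 0.13), Cycs (-0.01 and 0.08), Cox7c (-0.07 and 0.01), Ndufv3 (-0.01 and 0.08), Uqcrb (-0.01 and 0.05) and Atp5f1e (0.02 and -0.04). The files place 1 of the Atp5f1e probes on chromosome 14 of rn4, and RefSeq's GRCr8 promoter table places the gene on chromosome 3; whether that probe reads another locus was not tested.

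**Figure D3:**
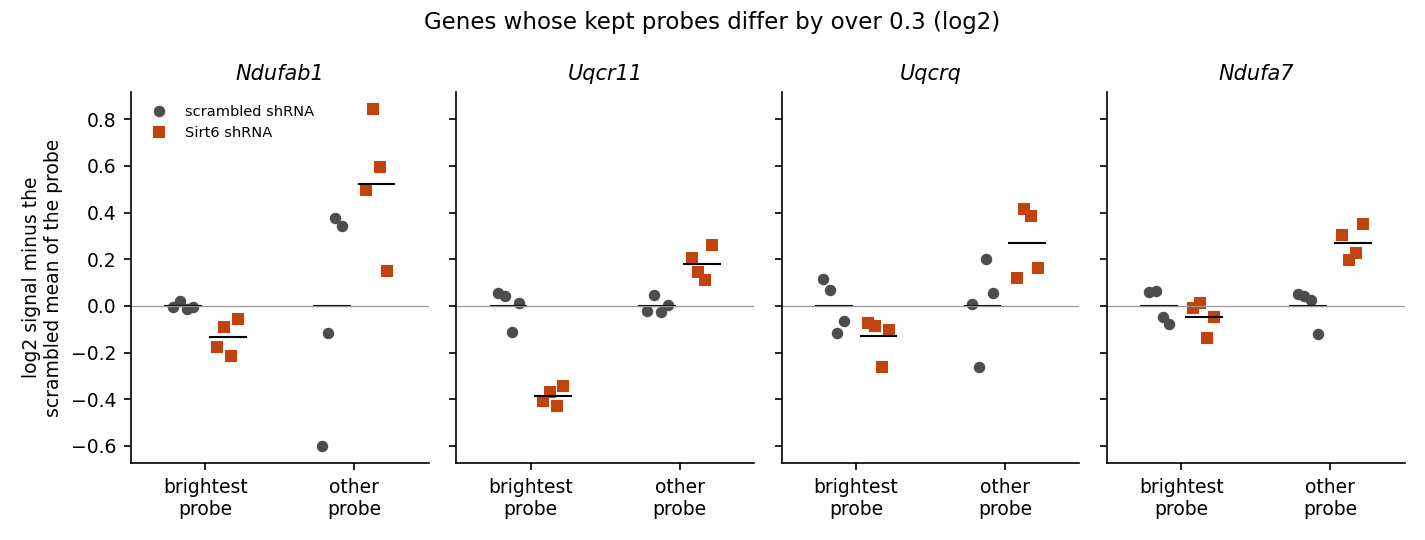
Log2 signal of both probes of Ndufab1, Uqcr11, Uqcrq and Ndufa7 on each array, minus the mean of the probe's scrambled arrays; grey circles are scrambled shRNA arrays, orange squares Sirt6 shRNA arrays and black bars group means (n = 4). In each gene the brightest probe's Sirt6 shRNA mean lies below zero and the other probe's above it, and only in Uqcr11 do both probes keep the groups apart in opposite directions at an adjusted p under 0.05.

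Cytochrome c, the carrier between complexes III and IV, did not change detectably. Cycs read 5.34, 5.34, 5.25 and 5.15 in the scrambled and 5.27, 5.29, 5.22 and 5.26 in the Sirt6 shRNA arrays. The groups overlapped, and the log2 difference was -0.01 with a 95% interval from -0.13 to 0.11 (limma adjusted p = 0.91).

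Complex IV, cytochrome c oxidase, has several subunits in ubiquitous and tissue-restricted forms, and the isoforms of subunit 6a moved in opposite directions. Cox6a1, the ubiquitous form, read 7.93, 7.84, 7.78 and 7.70 in the scrambled and 7.49, 7.51, 7.45 and 7.51 in the Sirt6 shRNA arrays. It was lower without overlap, at 79.9% of its scrambled level (log2 difference -0.32, SE 0.05, limma adjusted p = 0.0029). Cox6a2, the form known from heart and skeletal muscle, read 1.99, 1.82, 1.66 and 1.82 in the scrambled and 2.41, 2.42, 2.33 and 2.64 in the Sirt6 shRNA arrays. It was higher without overlap, 1.55-fold (log2 difference 0.63, SE 0.09, limma adjusted p = 0.0015), and a second probe that shares 53 bases in a row with the first gave 0.65.

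Of the forms of subunit 4 the tissue-restricted one was called. Cox4i2, the form known from lung and from low oxygen, read 1.31, 1.15, 0.91 and 1.07 in the scrambled and 0.72, 0.79, 0.69 and 0.87 in the Sirt6 shRNA arrays. Its nearest arrays were close but did not overlap, and the log2 difference was -0.34 (SE 0.08, limma adjusted p = 0.019). That call was lost, at limma adjusted p-values up to 0.052, when scrambled replicate 2, Sirt6 shRNA replicate 1 or Sirt6 shRNA replicate 3 was left out. Cox4i1, the ubiquitous form, overlapped between the groups, with a log2 difference of -0.08 (SE 0.04, limma adjusted p = 0.18).

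Of the other subunits of complex IV, Cox8a and Cox6c were called lower and the rest were not called. Cox8a, a small subunit required for the stability of the complex, read 6.50, 6.43, 6.30 and 6.37 in the scrambled and 6.25, 6.17, 6.10 and 6.24 in the Sirt6 shRNA arrays (log2 difference -0.21, SE 0.06, limma adjusted p = 0.025). Cox6c, a small subunit of the membrane part, read 6.55, 6.49, 6.39 and 6.33 in the scrambled and 6.31, 6.32, 6.14 and 6.18 in the Sirt6 shRNA arrays (log2 difference -0.21, SE 0.07, limma adjusted p = 0.047). Neither gene's groups overlapped, but the gap between the nearest arrays was narrow. Omission of single arrays ended the call of Cox8a in 4 of 8 cases and of Cox6c in 6 of 8, which left 1 to 4 complex IV genes called lower, and the other Cox6c probe was not called (-0.18, limma adjusted p = 0.12 over all kept probes).

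The other isoforms were near zero or too dim. Cox6b2, known from testis, had a log2 difference of 0.02 (limma adjusted p = 0.85), the ubiquitous Cox7a2 0.03 (limma adjusted p = 0.66) and the ubiquitous Cox7b -0.12 (limma adjusted p = 0.20), each with overlapping groups. Cox7b2 was well above background on 3 scrambled and 0 Sirt6 shRNA arrays, Cox8b on 2 and 0, and Cox8c on 0 of 8, so none of these was tested. Ndufa4, now counted as a subunit of complex IV, had a log2 difference of 0.00 with a 95% interval from -0.13 to 0.14.

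Complex V, the ATP synthase, had 3 of 17 genes called lower and none higher, with a median log2 difference of -0.04. That is 17.6%, against 14.8% of all genes called lower and 30.4% called in either direction. The lowest was Dmac2l, also known as coupling factor B of the ATP synthase, which read 1.89, 1.81, 1.72 and 1.73 in the scrambled and 1.05, 1.12, 0.96 and 1.25 in the Sirt6 shRNA arrays. The groups lay far apart relative to their spread, and Dmac2l stood at 61.8% of its scrambled level (log2 difference -0.69, SE 0.07, limma adjusted p = 0.00031). Atp5pb, the b subunit of the peripheral stalk, read 4.59, 4.65, 4.58 and 4.51 in the scrambled and 4.15, 4.18, 4.05 and 4.12 in the Sirt6 shRNA arrays. It stood at 72.9% of its scrambled level without overlap (log2 difference -0.46, SE 0.05, limma adjusted p = 0.00032). The other 3 stalk genes, Atp5po, Atp5pf and Atp5pd, ran from -0.04 to 0.03 and none was called.

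Atp5mf, the f subunit of the membrane part, read 4.12, 4.04, 3.96 and 3.95 in the scrambled and 3.80, 3.91, 3.70 and 3.78 in the Sirt6 shRNA arrays. Its groups came close without overlap, and the log2 difference was -0.22 (SE 0.06, limma adjusted p = 0.025), a call that 5 of the 8 omissions of a single array ended. Neither the 5 genes of the catalytic F1 part (Atp5f1a to Atp5f1e) nor the 3 genes of the c-ring (Atp5mc1, Atp5mc2 and Atp5mc3) were called, with log2 differences from -0.11 to 0.02. Atp5mc3 and Atp5f1d were lower without overlap at limma adjusted p-values of 0.063 and 0.071.

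Across complexes I, III and V, none of the 19 genes assigned to core, catalytic, F1 or c-ring classes was called (median log2 difference -0.0049), and 9 of the 40 in accessory, small, stalk and membrane classes were (22.5%), 8 lower and 1 higher (median -0.07). Both shares lie under the 30.4% of all genes tested. These are counts over classes drawn after values had been seen, and the difference between the classes was not tested. Complex II was not divided in this way and is not in these counts. Its Sdha, the flavoprotein that oxidises succinate, was called lower (log2 difference -0.21).

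Averaged over genes, the arrays of a group did not sit together. The mean over the 81 members, relative to each gene's mean over 8 arrays, was 0.09, 0.07, -0.01 and -0.0035 on the scrambled and -0.02, -0.02, -0.10 and -0.01 on the Sirt6 shRNA arrays. These means overlapped between the groups. Scrambled replicate 1 was the highest of its group for 53 of the 81 genes, and Sirt6 shRNA replicate 3 was the lowest of its group for 64 of 81. Without scrambled replicate 1, 12 members were lower and 2 higher; without Sirt6 shRNA replicate 3, 11 and 2. By complex, the means of complexes II, III and V did not overlap between the groups, at group differences of -0.17, -0.13 and -0.10, and those of complexes I and IV did, at -0.05 each. The complex III mean included Uqcr10 and Uqcr11, at -0.47 and -0.39, while the median difference of that complex was -0.06. Among the 4 complex II genes only the 2 called ones kept the groups apart singly. The same held for the 2 called among the 9 complex III genes. Means without the called genes were not taken, so whether such means keep the groups apart was not tested. Complex V rested on Dmac2l, which encodes no subunit: without it, a comparison added after the data were seen, the means of the other 16 complex V genes overlapped, with -0.0087 on scrambled replicate 4 and -0.0069 on Sirt6 shRNA replicate 2, at a group difference of -0.07. The 64 members that were not called overlapped too, at -0.03.

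**Figure D4:**
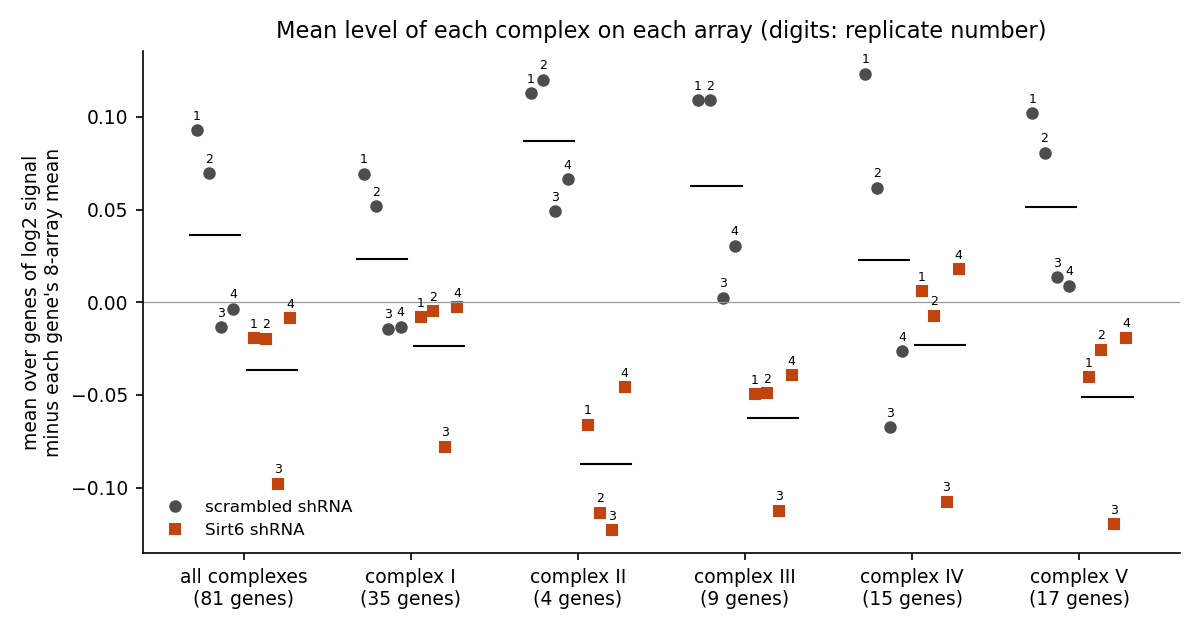
Mean over genes of the log2 signal minus each gene's 8-array mean, for all 81 tested genes and for each complex on each array; grey circles are scrambled shRNA and orange squares Sirt6 shRNA arrays, digits are replicate numbers and black bars group means (n = 4). Complexes II and III keep the groups apart with their called genes included, and were not averaged without them. Complex V does so only with Dmac2l among its genes, and complexes I and IV do not. Sirt6 shRNA replicate 3 is the lowest array in every complex.

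The letters of the members' promoters, which the choice of genes did not use, were set beside those of all promoters. RefSeq's table for GRCr8, with 250 bases before and 50 after each gene's start, held 71 of the 84 genes. Both strands were searched for 8 motifs, none of which holds another. The 3 marked below are TGCGCA, the core of the site of nuclear respiratory factor 1, CCGGAA, the core of ETS-family sites such as that of GABP, and AAGATGGCG, a site form of YY1, which holds an ATG and can lie over a start codon. TGCGCA stood in 21 of the 71 promoters (29.6%) and in 7.68% of all 27457 promoters of that length. CCGGAA stood in 26 (36.6%, against 15.8%) and AAGATGGCG in 10 (14.1%, against 1.93%). Of the other 5, AAGGTCA, from the site of oestrogen-related receptors, stood in 15.5% of the members' promoters against 4.37% of all, TGACGTCA, the cAMP response element, in 5.63% against 1.91%, and GGGCGG, the box of SP1, in 42.3% against 34.9%. TATAAA, the TATA box, stood in 8.45% against 14.3% and CCAAT in 33.8% against 37.7%. Each of the 8 was absent from most of the members' promoters. The members' promoters also had more G and C, at a median of 56.3% against 52.3%. Of the 10 genes called lower that the table holds, 2 had TGCGCA, 3 CCGGAA and 3 AAGATGGCG, and of the 56 not called 18, 23 and 6. A match is a description of the letters and no sign that a factor binds there.

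The promoters printed are those of the called complex II genes and of Ndufs4, the gene of complex I that rose, each from 250 bases before to 30 after the start, with the 3 motifs named first in capitals and the other 5 unmarked.
Sdha: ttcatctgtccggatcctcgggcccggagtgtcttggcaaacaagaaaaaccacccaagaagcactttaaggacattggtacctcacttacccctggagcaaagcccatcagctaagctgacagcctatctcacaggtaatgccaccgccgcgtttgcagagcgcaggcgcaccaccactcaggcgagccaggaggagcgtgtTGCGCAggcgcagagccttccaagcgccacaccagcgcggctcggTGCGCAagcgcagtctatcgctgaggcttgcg
Sdhc: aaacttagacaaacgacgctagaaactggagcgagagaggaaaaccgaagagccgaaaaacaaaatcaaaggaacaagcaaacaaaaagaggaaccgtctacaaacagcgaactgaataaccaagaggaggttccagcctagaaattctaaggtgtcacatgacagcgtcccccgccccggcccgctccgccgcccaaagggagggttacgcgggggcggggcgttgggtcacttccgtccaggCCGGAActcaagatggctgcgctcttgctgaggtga
Ndufs4: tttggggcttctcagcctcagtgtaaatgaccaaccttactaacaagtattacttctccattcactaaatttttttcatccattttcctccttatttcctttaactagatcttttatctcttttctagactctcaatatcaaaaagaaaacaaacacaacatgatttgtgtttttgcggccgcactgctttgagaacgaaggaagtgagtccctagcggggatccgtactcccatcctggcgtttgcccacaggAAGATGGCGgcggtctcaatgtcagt
In GRCr8 they are chr1:30764303-30764582 on the plus strand for Sdha, chr13:86097996-86098275 on the minus strand for Sdhc and chr2:47794885-47795164 on the minus strand for Ndufs4. The Sdha promoter holds TGCGCA at 2 places, the Sdhc promoter CCGGAA and the Ndufs4 promoter AAGATGGCG. Ndufs6, which fell, holds AAGATGGCG as well, so genes that moved in opposite directions carry it.

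The genes that assemble, regulate and feed the chain were read from the same fit. Of 18 complex I assembly factors 4 rose and 1 fell, with Lyrm2 at 0.66 and Ndufaf2 at 0.30 on the log2 scale (limma adjusted p = 0.00019 and 0.0031). Of 17 assembly factors of complexes II, III and V 5 rose and 5 fell, with Fmc1, an ATP synthase assembly factor, at 0.31 (limma adjusted p = 0.00053) and Lyrm7, which serves the Rieske protein, at 0.42 (limma adjusted p = 0.00067). Of 21 complex IV assembly factors 3 rose and 3 fell, with Cox16 at 0.34 (limma adjusted p = 0.0024) and Cox20 at 0.74 (limma adjusted p = 0.0059). The shares called were 27.8%, 58.8% and 28.6% of these lists, against 30.4% of all genes, and their medians were 0.03, -0.0014 and 0.05. Leaving out 1 array at a time gave 3 to 4 higher and 1 lower in the first list, 5 higher and 0 to 3 lower in the second, and 3 to 5 higher and 0 to 1 lower in the third, so with any array left out at least 2 fewer genes were called lower in each of the last 2 lists.

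Of 20 regulators of mitochondrial biogenesis and mitochondrial DNA 6 fell and 3 rose, with a median of -0.06. Mterf3, a repressor of mitochondrial transcription that also serves the ribosome, had a log2 difference of -0.72 (limma adjusted p = 5.3e-05) and Twnk, the mitochondrial DNA helicase, -0.31 (limma adjusted p = 0.0036). Of 23 genes of the tricarboxylic acid cycle and pyruvate dehydrogenase 7 fell and 2 rose, with Pdk2, a kinase that inhibits pyruvate dehydrogenase, at -0.57 (limma adjusted p = 7e-05) and Suclg2, a subunit of succinyl-CoA ligase, at -0.40 (limma adjusted p = 0.00038). Of 18 genes of other electron entry, carriers and coupling 4 fell and 1 rose, with Etfa at -0.25 (limma adjusted p = 0.0027) and Prodh at -0.39 (limma adjusted p = 0.0059). Of 69 mitochondrial ribosome proteins 12 rose and 7 fell, with Mrps30 at -0.42 (limma adjusted p = 0.00013) and Mrps18a at -0.28 (limma adjusted p = 0.00099). The shares called in these 4 lists were 45.0%, 39.1%, 27.8% and 27.5%, against 30.4% of all genes. Leaving out 1 array at a time gave 4 to 7 lower and 1 to 2 higher among regulators, 6 to 8 and 1 to 2 in the tricarboxylic acid cycle list, 3 to 4 and 1 to 2 among other electron entry genes, and 3 to 6 and 6 to 10 among ribosome proteins. The 13 subunits encoded by mitochondrial DNA were not analysed here. Spike-in scaling left fewer calls in these lists: 0 lower in all the assembly lists and among other electron entry genes, 2 lower among regulators, 3 in the tricarboxylic acid cycle list and 1 among ribosome proteins, and 0 to 5 higher in each list.

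**Figure D5:**
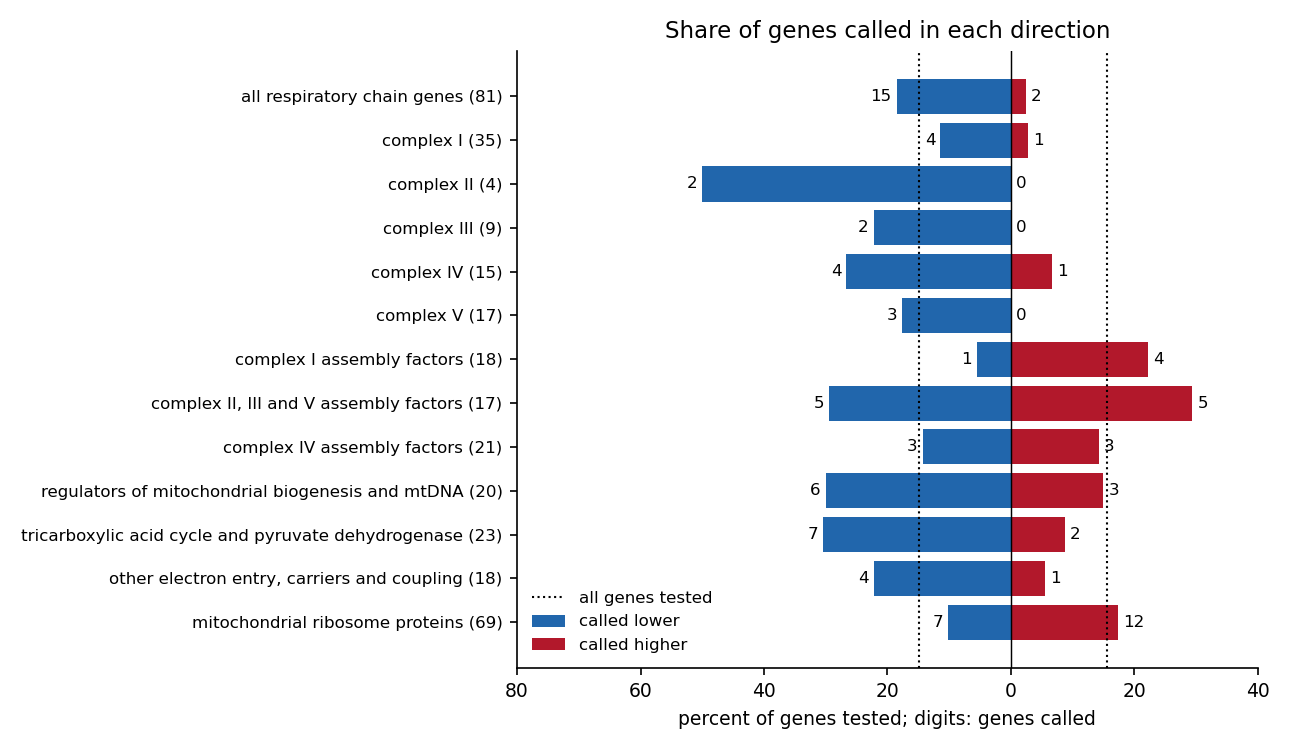
Percent of the tested genes called lower (bars to the left) and higher (bars to the right) in each complex and in each mitochondrial list; the number tested is in brackets, the number called stands at the bar ends, and dotted lines mark the shares over all 22593 genes, 14.8% lower and 15.6% higher. The bar for genes called higher stays under the dotted line in every complex, and complexes II, III and V have none.

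Markers of other cells moved between the same groups, where 14.8% of all genes were called lower and 15.6% higher. Of the 10 astrocyte markers 8 fell and none rose, with S100b at -1.42 and Gfap at -0.71 on the log2 scale (limma adjusted p = 3.1e-05 and 0.00029), and their summed signal, in units of each array's 75th percentile, ran from 387 to 423 in the scrambled and from 271 to 301 in the Sirt6 shRNA arrays. Of 10 microglia and macrophage markers 3 fell, with sums of 21.5 to 29.5 and 14.0 to 27.2, and the groups did not overlap for 1 of the 10. Of 10 oligodendrocyte lineage markers 3 fell and 1 rose, with sums of 48.2 to 53.3 and 42.9 to 44.8. Of 13 endothelial and mural markers 8 were tested (Cldn5, Rgs5, Cnn1, Des and Kcnj8 were too dim). Of these 4 rose, led by Tagln at 2.14, and none was called lower, although 2 had a negative difference, down to -0.46. Their sums, in which the brightest genes count most, ran from 3.50 to 4.29 and from 11.2 to 13.7. Of 9 fibroblast and meningeal markers tested, with Lum too dim, 3 rose and 2 fell, with sums of 26.8 to 30.7 and 24.1 to 26.1. The neuron marker sums ran from 182 to 187 and from 187 to 209. No tested marker lacked signal above background on all 8 arrays. The part of these markers in the respiratory chain differences was not tested, and slide row cannot be told apart from group, since each group took up 1 row of the single slide.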

How the data were processed

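The deposited files hold spot intensity values that Agilent Feature Extraction (version 11.5.1.1, per the file headers and the submitters' processing notes) wrote after subtracting local background, unscaled between arrays. A deposited table of the authors' log2 values was used as an alternative; its values differed from the log2 processed signal by a constant per array, with an SD of at most 0.0029, and its column medians ran from -3.71 to -3.60.

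Spots of a probe were averaged on the log2 scale, without control and outlier spots, and the array's 75th percentile was subtracted. A probe was kept if well above background on at least 4 of 8 arrays (28620 of 45598 probes; 108 of 113 members'). The brightest kept probe stood for a gene. Probes were named through RefSeq accessions (GRCr8); all 113 member probes matched, and 17 genes were renamed. The comparison used limma (version 3.58.1, under R 4.3.3; lmFit and eBayes, two-sided) over all genes, with Benjamini-Hochberg adjustment, and called at an adjusted p under 0.05. The fit was tested on simulated data. The number of arrays limits the precision.

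The members and lists were chosen with earlier results of these data known. Every called member was described with its arrays, then the isoform pairs, members whose probes disagreed, and the 2 genes of smallest p of each other list; other genes were named after their values were seen. Alternatives were normexp background correction (offset 50), quantile normalization, median centring, spike-in scaling, the authors' values, other filters on dim probes, other uses of several probes, other variance models, weights for arrays, a block for the replicate number, and leaving out 1 array at a time.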

Additional observations from a re-analysis of the deposited data

How the results depend on the processing

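The count of members called lower was 15 and stayed between 12 and 19 under the alternatives that kept all arrays, except under spike-in scaling, where it was 4. The count of members called higher was 2, and 4 with normexp background correction. The members' median log2 difference was -0.0458, and 0.0286 under spike-in scaling, -0.0198 under quantile normalization and -0.0909 under median centring; it was -0.0248 without Sirt6 shRNA replicate 3, -0.0258 without scrambled replicate 1 and -0.0712 without scrambled replicate 4. The cause was not tested. Leaving out 1 array in turn gave 11 to 15 lower and 2 higher. Cycs, not called, turned positive under quantile normalization (0.0228), spike-in scaling (0.0646) and the mean of a gene's probes (0.0375), and ran from -0.0490 to 0.0141 as 1 array was left out. Cox6b2, not called, turned negative under median centring (-0.0242) and ran from -0.0475 to 0.0615 as 1 array was left out. Cox7a2, not called, turned negative under median centring (-0.0118). Dmac2l, Cox6a2, Uqcr10, Atp5pb and Ndufs4 kept their calls under all 20 alternatives, and Ndufa10, Sdhc, Cox6a1, Ndufs6, Ndufa8, Ndufa2 and Sdha lost theirs under spike-in scaling only. Uqcr11 lost its call with the mean of its probes. Cox4i2, Atp5mf, Cox8a and Cox6c lost theirs under spike-in scaling and without single arrays, the last 3 also without the filter on dim probes. Cox6c lost its call as well with the mean of its probes and with every kept probe fitted, and kept it under 10 of the 20 alternatives.

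With the replicate block, 16 members were lower and 2 higher. Arrays of the same number correlated in their deviations from the group means at 0.06, 0.16, 0.13 and 0.03, and arrays of different numbers at -0.22 to 0.12. Not every array correlated best with its own number, and the numbers were not taken as pairs. The replicate number was also the slide column in both groups, so a shared column cannot be told apart from a shared number. Signal over background limits Cox7b2, Cox8b and Cox8c, which could not be tested.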
